A study of Mus musculus with 2 samples.

Results

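Dendritic cells carry antigen to T cells, and a few of them are found in the borders and fluid spaces of the brain. The cells described here were picked by their transcripts from single-cell RNA libraries of the central nervous system: high in MHC class II, low in the complement protein C1q that brain macrophages make, under a cap on the neutrophil transcripts S100a8 and S100a9, and with no UMI of 2 B cell genes. A cell was a member when H2-Aa, H2-Ab1 and H2-Eb1 together reached 3000 CPM (a gene's UMIs scaled to a fixed total of UMIs per cell or per summed population), C1qa, C1qb and C1qc together stayed under 2000 CPM, S100a8 and S100a9 together stayed under 20000 CPM, and Cd79a and Ms4a1 had 0 UMIs. A UMI is a molecular tag that counts 1 captured transcript. The rule took 49 of 1234 kept cells from the Cx3cr1 heterozygous library and 96 of 1751 from the wild-type library, 145 of 2985 in all.

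The series profiled cells labelled microglia-like from mouse central nervous system, 1 library of genotype Cx3cr1-/+ and 1 of genotype Cx3cr1+/+, with the stated interest in progeny of haplo-insufficient and wild-type blood stem and progenitor cells. Per the labels' protocols, lineage-negative cells sorted as GFP+ and GFP- from Cx3cr1-/+ donors were given intravenously to CD45.1 hosts conditioned with busulfan, an alkylating agent that depletes bone marrow, in 4 doses of 25 mg/kg. The text is the same for both libraries and names no donor for the wild-type one, and sex, age, time and the number of animals were not stated. Host cells can remain after busulfan, and the transcripts counted here do not separate donor from host.

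Conventional dendritic cells come in a pair of lineages that share the growth factor receptor Flt3 and the transcription factor Zbtb46. Type 1 cells (cDC1) need Irf8 and Batf3, carry Xcr1 and Clec9a and are known for presenting antigen from dead cells to CD8 T cells. Type 2 cells (cDC2) need Irf4 and in the mouse often carry the lectins Cd209a, Mgl2 and Clec10a. After activation either type can switch on Ccr7, the receptor that leads it into lymphatic vessels. Patrolling monocytes, which crawl along the inside of blood vessels, are another source of class II transcripts and are marked in the mouse by Ace, Treml4, Cd300e and Cx3cr1.

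Class II genes share a promoter layout, an X box and a Y box on which the regulator Ciita is assembled, and 4 of these promoters are shown because class II transcripts chose the cells and because H2-Oa and H2-Ob are compared between the sub-clusters below. Each line gives the 120 bases before the annotated start, 5′ to 3′ on the gene's strand, from RefSeq (GRCm38.p6). Capitals mark GATTGG (the Y box letters) and AACNNATG (letters of the X box core) as read on that strand. The H2-Eb1 line also holds the reverse complement of GATTGG, left in lower case.
H2-Aa, the class II alpha chain, chr17:34287824-34287943, minus strand: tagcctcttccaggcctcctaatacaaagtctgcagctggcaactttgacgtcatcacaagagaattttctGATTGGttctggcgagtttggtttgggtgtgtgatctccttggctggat
H2-Eb1, a class II beta chain, chr17:34305747-34305866, plus strand: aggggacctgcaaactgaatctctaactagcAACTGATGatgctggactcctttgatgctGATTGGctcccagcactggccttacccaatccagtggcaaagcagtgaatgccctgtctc
H2-Oa, chr17:34092259-34092378, plus strand: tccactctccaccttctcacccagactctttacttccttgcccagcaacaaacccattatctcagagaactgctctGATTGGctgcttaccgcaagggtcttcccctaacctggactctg
H2-Ob, chr17:34238785-34238904, plus strand: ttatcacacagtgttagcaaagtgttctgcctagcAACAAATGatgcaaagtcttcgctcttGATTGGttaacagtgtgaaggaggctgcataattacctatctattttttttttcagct
The Y box letters in capitals began 49, 60, 44 and 58 bases before the start in these 4 promoters. Of 9 class II H2 genes on the list, 8 had a promoter in the table, and H2-Ab1 had none there. Searched on both strands of the same 120 bases, GATTGG stood in 7 of the 8 and in 9.67% of all 32851 promoters, AACNNATG in 3 of the 8 and 3.54% of all, and the pair, which did not overlap in the sequences shown, in 3 of the 8 and 0.289% of all.

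Sequencing gave 17828344 UMIs over 1837 barcodes for heterozygous and 22062823 UMIs over 2359 barcodes for wild type. The libraries listed 339 barcodes in common, and these were left out. Members had a median of 12563 UMIs in the heterozygous library (range 1159 to 36846) and 10455.5 in the wild-type library (913 to 32795), with 647799 and 1107944 UMIs in sum. The X-linked Xist, made by female cells, or a Y-linked transcript marked the sex of most members. In the heterozygous library 43 of 49 members had Xist without a Y-linked UMI and 0 had a Y-linked UMI, whereas in the wild-type library 62 of 96 had a Y-linked UMI without Xist, 2 had both and 0 had Xist alone. Among members, genotype, library and sex mark therefore cannot be told apart. Other wild-type cells had mixed marks. Class II C1q macrophages are cells of the same rule but with at least 2000 CPM of C1q. Of 142 in the wild-type library, 16 had Xist alone and 66 a Y-linked UMI alone. Of 432 cells high in S100a8 and S100a9, 36 and 189 did. In the heterozygous library the counts were 70 and 1 of 81, and 211 and 3 of 288. Why the marks differ between populations was not tested. With 1 library per genotype there is no test across animals, every ratio below compares these libraries only, and intervals (95%) cover counting error alone.

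**Figure D1:**
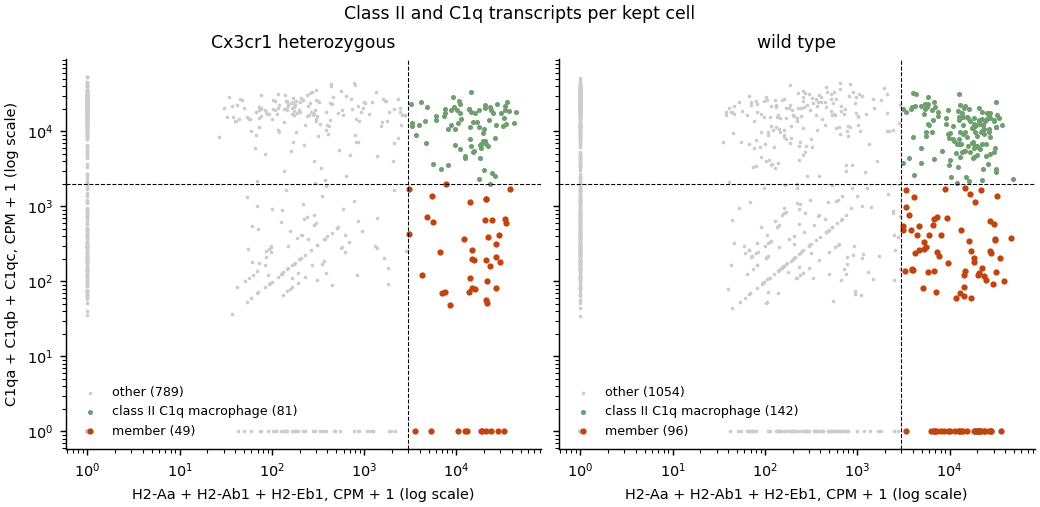
Summed class II transcripts (x axis, CPM + 1, log scale) against summed C1q transcripts (y axis, CPM + 1, log scale) for each kept cell without neutrophil-level S100a8 and S100a9 or B cell transcripts; heterozygous left, wild type right, dashed lines at the limits of the rule. The 49 and 96 members fill the lower right field under 81 and 142 class II C1q macrophages.

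The values that chose the members are given as description. Summed class II had a median of 15834 CPM in heterozygous members and 13265 CPM in wild-type members. The lowest members lay at 3029 and 3138 CPM, and the nearest cells outside the limit at 2836 and 2921 CPM. On the C1q side the highest members lay at 1994 and 1780 CPM and the nearest cells outside at 2000 and 2078 CPM, while 11 of 49 heterozygous and 31 of 96 wild-type members had 0 C1q UMIs. The plot of class II against C1q shows no empty band at either limit, so the rule cuts a range.

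Clustering the 145 members separated 3 groups, and 1 of them does not bear out the name dendritic. Cells of that group had no UMI of Flt3, Zbtb46, Xcr1 or Cd209a in either library and were led by genes of patrolling monocytes. Its 34 cells (8 heterozygous, 26 wild type) are called patrolling monocyte-like, and the other 111 divide into 40 cDC1-like and 71 cDC2-like cells. The names rest on marker lists, and the defining genes below describe the clusters and are no finding about them.

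Summed over the cluster, the cDC1-like cells had 11 of 12 type 1 list genes at least 1.5-fold over the other members, but the cluster was mixed. Of its cells, 7 of 18 heterozygous and 7 of 22 wild type had 0 UMIs of both Xcr1 and Clec9a, and 2 and 4 of these had a UMI of the type 2 lectin Cd209a. Xcr1, the receptor for the chemokine Xcl1, stood at 173 CPM in heterozygous and 177 CPM in wild-type cDC1-like cells, against 3.69 and 0 CPM in the cDC2-like cells of the same libraries. Clec9a, a receptor for the actin of dead cells, stood at 151 and 154 CPM in heterozygous and wild-type cDC1-like cells. The transcription factor Irf8 reached 939 and 1053 CPM there, against 48.0 and 69.3 CPM in heterozygous and wild-type cDC2-like cells. These 3 genes were at like levels in the heterozygous and wild-type cells of the cluster. Other genes among its 10 leading ones were the interferon-inducible Ifi205 and the proliferation genes Hist1h2ap, Hist1h1b and Top2a. Dividing cells, taken as those with at least 3 UMIs over 10 proliferation genes, made up 8 of 18 heterozygous and 13 of 22 wild-type cDC1-like cells. The leading genes Ccr7, Ccl5 and Gzma came mostly from 1 to 3 heterozygous cells described below.

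The cDC2-like cells had 2 genes of the type 2 list among their 10 leading genes, the lectins Cd209a and Mgl2, seen in 28 and 27 of 71 cells. Cd209a, a C-type lectin of the DC-SIGN family, stood at 524 CPM in heterozygous and 491 CPM in wild-type cDC2-like cells, and was at 0 in patrolling monocyte-like cells of both libraries. Mgl2, a galactose-binding lectin, stood at 602 and 434 CPM in heterozygous and wild-type cDC2-like cells, and Clec10a, its close relative, at 170 and 173 CPM. Reads of Mgl2 and Clec10a, closely related genes, may have been split between them. Flt3 was present at 51.7 and 43.8 CPM, against 103 and 110 CPM in heterozygous and wild-type cDC1-like cells. The mannose receptor Mrc1, also known from border macrophages, was among the leading genes with 94 UMIs spread over 27 of 71 cells. Of the other leading genes, Plpp3, Mgp, Igfbp7 and Lum each had all or nearly all of their UMIs in 1 cell, and Retnla came from 2 heterozygous cells. Dividing cells made up 5 of 23 heterozygous and 11 of 48 wild-type cDC2-like cells.

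The patrolling monocyte-like cells had lower class II levels than the dendritic clusters. H2-Aa stood at 3178 CPM in heterozygous and 2765 CPM in wild-type cells of this cluster, against 7756 and 7893 CPM in cDC1-like cells and 7285 and 7480 CPM in cDC2-like cells. Cd300e, an activating receptor of monocytes, stood at 139 and 196 CPM in this cluster and had 0 UMIs in every other member of either library. All 9 heterozygous UMIs lay in 1 of 8 cells, while the 51 wild-type UMIs lay in 15 of 26. Ace, the angiotensin-converting enzyme, reached 123 CPM in heterozygous and 441 CPM in wild-type cells of the cluster, and Itgal, the integrin alpha L chain by which these monocytes hold on to vessel walls, 710 and 637 CPM. H2-Oa and H2-Ob, subunits of the class II chaperone that restrains peptide loading, were at 0 UMIs in heterozygous cells, which allows up to 46.3 CPM, and at 15.3 and 3.84 CPM in wild-type cells of the cluster. H2-Oa stood at 103 CPM in heterozygous and 76.9 CPM in wild-type cDC1-like cells, and at 66.5 and 111 CPM in cDC2-like cells. H2-Ob stood at 109 and 130 CPM in heterozygous and wild-type cDC1-like cells. In cDC2-like cells it stood at 25.8 and 42.0 CPM, under those 46.3 CPM. Prss34 and Mcpt8, proteases of basophils and mast cells that also led this cluster, had 101 of 102 and 43 of 43 of its UMIs in 1 wild-type cell.

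**Figure D2:**
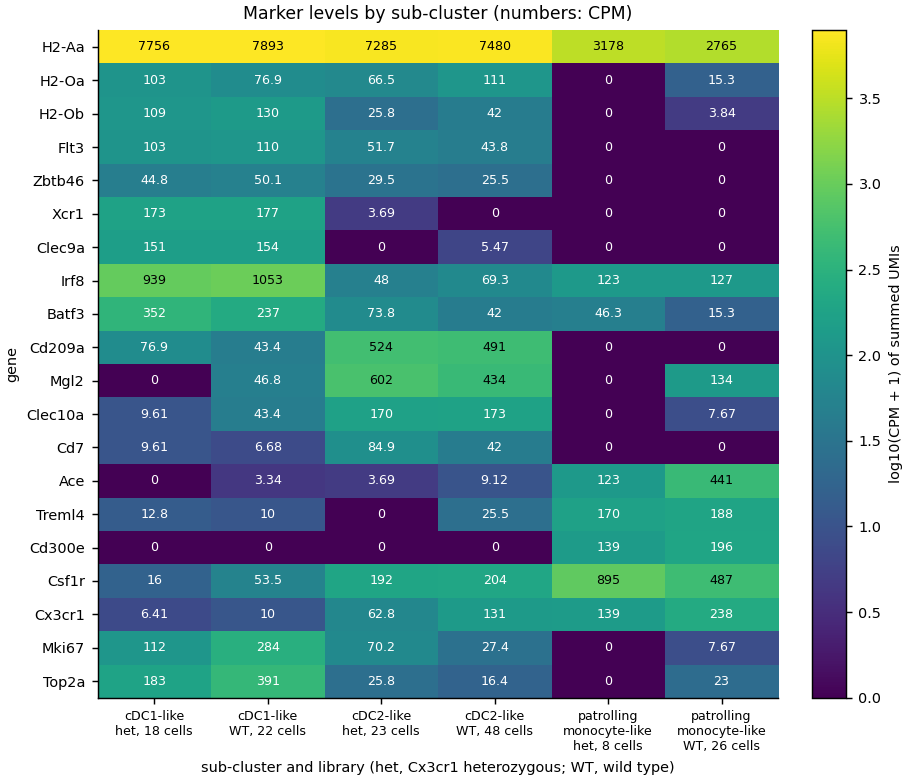
Levels of 20 marker genes (rows) in the 3 sub-clusters of each library (columns, heterozygous left of wild type); numbers are CPM of summed UMIs and colour is log10(CPM + 1). Xcr1, Clec9a and Irf8 are highest in the cDC1-like columns, Cd209a, Mgl2 and Clec10a in the cDC2-like columns, and Ace, Treml4, Cd300e and Csf1r in the patrolling monocyte-like columns, where Flt3 and Zbtb46 read 0.

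Shares of cells with a UMI were read against cells high in S100a8 and S100a9, transcripts of neutrophils, after thinning each cell to 2000 UMIs. These cells were not a clean negative. After thinning, 18.2% of heterozygous and 17.9% of wild-type ones had an H2-Aa UMI. Their patrolling monocyte markers summed to 1115 and 1704 CPM. Before thinning, these cells had median depths of 16792.5 UMIs in the heterozygous and 13251.5 UMIs in the wild-type library. Cd209a was seen in 18.8% of heterozygous and 20.4% of wild-type members, against 0.365% and 0% of the S100-high cells (unthinned 24.5% and 24.0% of members, 2.43% and 1.85% of S100-high cells). Flt3 was seen in 8.33% and 7.53% of members and in 0.730% and 0.242% of S100-high cells. For Cd209a the intervals of members and S100-high cells did not overlap in either library, whereas for Flt3 they overlapped in the heterozygous library (2.32 to 20% against 0.0885 to 2.61%). For Ace, Treml4 and Cx3cr1 the S100-high cells had shares above those of the members (Ace 11.3% and 16.2% there, against 6.25% in heterozygous and 15.1% in wild-type members). For these genes the shares do not decide whether members express them.

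T cell markers were near 0, while microglia and neutrophil markers were present at like summed levels, 340 and 338 CPM and 602 and 716 CPM in heterozygous and wild-type members. Of 9 T cell markers 3 had a UMI in heterozygous and 1 in wild-type members, with a summed level of 6.17 and 1.81 CPM. Plasmacytoid dendritic cell markers summed to 415 and 476 CPM, with Ccr9 and Klk1 at 0 in both libraries and Siglech at 14.8 CPM or less in every sub-cluster except the wild-type patrolling monocyte-like cells, where it read 15.3 CPM. Natural killer cell markers summed to 324 CPM in heterozygous and 56.0 CPM in wild-type members. In the heterozygous library, 106 of 106 Gzma UMIs, a granule protease of killer cells, lay in 1 cell of 25452 UMIs that also held 18 UMIs of Prf1, 16 of Nkg7, 6 of Ncr1 and 6 of Eomes beside 164 of H2-Aa and 3 of Xcr1. That barcode carried the genes of a killer cell and of a cDC1 together. No doublet caller was used, and whether such barcodes hold 2 cells was not tested.

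Members made up 3.97% of kept heterozygous cells (interval 2.95 to 5.22%) and 5.48% of kept wild-type cells (4.46 to 6.65%). The intervals overlap. With the patrolling monocyte-like cells left out, an alternative chosen after seeing the data, the dendritic cells were 3.32% (2.39 to 4.48%) and 4.00% (3.13 to 5.02%) of kept cells. The cDC1-like cluster was 36.7% of heterozygous members (23.4 to 51.7%) and 22.9% of wild-type members (15 to 32.6%). The cDC2-like cluster was 46.9% of heterozygous and 50% of wild-type members, and the patrolling monocyte-like cluster 16.3% (7.32 to 29.7%) and 27.1% (18.5 to 37.1%). Each pair of intervals overlaps, and the make-up was not tested. The wild-type patrolling monocyte-like share was 42.7% when members over 2 times the median UMIs were left out and the rest clustered anew. The clusters were made from all genes of these cells, including those that differ between the libraries.

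Comparing heterozygous with wild-type members, 212 of 4105 genes were over 1.5-fold higher (5.16%) and 341 over 1.5-fold lower (8.31%), counting genes with at least 50 UMIs and a mean of 20 CPM. Of these, 136 and 232 had an interval that left out equality. The higher genes included most cDC1 markers and the lower ones most patrolling monocyte markers. Given the same sub-cluster shares in both libraries, the counts were 246 higher and 255 lower. Without the cell holding the most UMIs of each gene in each library, 156 of the 212 and 326 of the 341 kept their call. Leaving those cells out also moved the median log2 ratio of all genes from -0.04 to -0.12. That shift is toward lower ratios, so the kept counts of higher and lower genes do not compare evenly.

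Class II genes lay close together in heterozygous and wild-type members. None of 15 class II pathway genes kept passed 1.5-fold (0 higher, 0 lower), and their median log2 ratio was 0.11 against -0.04 over all genes. H2-Aa (chr17:34282744-34287823, GRCm38) stood at 7101 CPM in heterozygous and 6482 CPM in wild-type members, a log2 ratio of 0.13 (0.08 to 0.19). H2-Eb1 (chr17:34305867-34316674) stood at 5366 and 4721 CPM, and Cd74, the chain that guards the class II groove, at 24955 and 22755 CPM. Within the cDC1-like and cDC2-like cells the log2 ratios of H2-Aa were -0.03 and -0.04. Class I genes behaved alike: of 13 kept, 0 passed 1.5-fold either way (median 0.13), and B2m, the light chain of class I, stood at 1508 CPM in heterozygous and 1722 CPM in wild-type members. Class II genes were used by the rule, which asks for a high level in both libraries, so their near equality is a description.

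Genes of the type 1 lineage were higher in the heterozygous members as a whole, and fewer of them were inside the cluster. Of 11 cDC1 genes kept, 9 passed 1.5-fold upward and 0 downward, and the median log2 ratio was 0.83 against -0.04 over all genes. Xcr1 stood at 84.9 CPM in heterozygous and 47.8 CPM in wild-type members, with 55 UMIs in 11 cells and 53 UMIs in 10 cells. Batf3, a transcription factor that cDC1 cells depend on, had 205 CPM in heterozygous and 88.5 CPM in wild-type members (log2 ratio 1.21, 0.83 to 1.61), and the double-stranded RNA sensor Tlr3 had 86.4 and 26.2 CPM (log2 ratio 1.72, 1.05 to 2.42). Within cDC1-like cells, where 6.88% of 1584 genes were over 1.5-fold higher, 2 of 10 cDC1 genes were, Wdfy4 and Tlr3, and the median was 0.29. Xcr1 was level there, with a log2 ratio of -0.03 (-0.61 to 0.54). Given the same sub-cluster shares in both libraries, the log2 ratio over all members was 0.02 for Xcr1, 0.69 for Batf3 and 1.02 for Tlr3.

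Type 2 markers did not lean one way. Of 6 cDC2 genes kept, Cd7 was over 1.5-fold higher and Tnip3 lower, with a median of -0.02. Cd209a had 166 UMIs in 12 of 49 heterozygous members and 282 UMIs in 23 of 96 wild-type members, which gave 256 and 255 CPM and a log2 ratio of 0.01 (-0.28 to 0.29). Flt3 had 46 UMIs in 21 heterozygous and 57 UMIs in 30 wild-type members, 71.0 and 51.4 CPM, with an interval on the log2 scale of -0.13 to 1.05. Both receptor genes are on the list given for the population, and neither passed 1.5-fold.

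Several of the largest differences came from very few cells. Of 7 genes of mature dendritic cells kept, Ccr7, Fscn1, Il4i1 and Relb were over 1.5-fold higher and Ccl22 lower. Ccr7 (chr11:99144196-99155077, minus strand) had 44, 43 and 27 UMIs in 3 heterozygous members and 0 UMIs in all 96 wild-type members. With 3 counts in place of 0 it was 65.0-fold higher in the heterozygous sum, and the interval had a lower limit of 52.0-fold. The 3 cells were 3 of 18 heterozygous cDC1-like cells (16.7%, interval 3.58 to 41.4%), and 0 of 22 wild-type cDC1-like cells has an interval up to 15.4% (3 counts in place of 0 give 13.6%). Fscn1, the actin-bundling protein of migrating dendritic cells, had 33, 31 and 1 UMIs in the same 3 cells, the NF-kB subunit Relb 12, 11 and 4, and Cacnb3, a calcium channel subunit listed for mature cells, 8, 7 and 5. Il12b, a subunit of the T cell-directing cytokines IL-12 and IL-23, had 19 and 11 UMIs in 2 of them and 0 UMIs elsewhere among the members. Xcr1 and Clec9a, the markers of resting cDC1 cells, had 1 UMI each in 1 of the 3 cells and 0 in the others, so their place in the cDC1-like cluster did not rest on these markers. Leaving the 3 cells out turned Fscn1 to a log2 ratio of -1.13, against 3.21 (2.31 to 4.24) with all members.

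The chemokines that mature dendritic cells make were just as concentrated. Ccl17, which draws T cells through Ccr4, had 118 UMIs in heterozygous and 207 in wild-type members, or 182 and 187 CPM (log2 ratio -0.04, -0.38 to 0.30). Of these, 91 lay in 1 heterozygous Ccr7 cell and 163 in 1 wild-type cDC2-like cell. Ccl22, a second ligand of Ccr4, had 14, 13 and 4 UMIs in the 3 heterozygous Ccr7 cells, and 153, 2 and 2 UMIs in 3 wild-type cells. Its log2 ratio was -1.57 (-2.17 to -1.0) and became 2.86 without the top cell of each library. Ccl5 had 351, 74, 37 and 1 UMIs in 4 heterozygous cells, of which 351 and 37 were in Ccr7 cells and 74 in the cell that carried Gzma, and 60 UMIs over 19 wild-type cells.

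**Figure D3:**
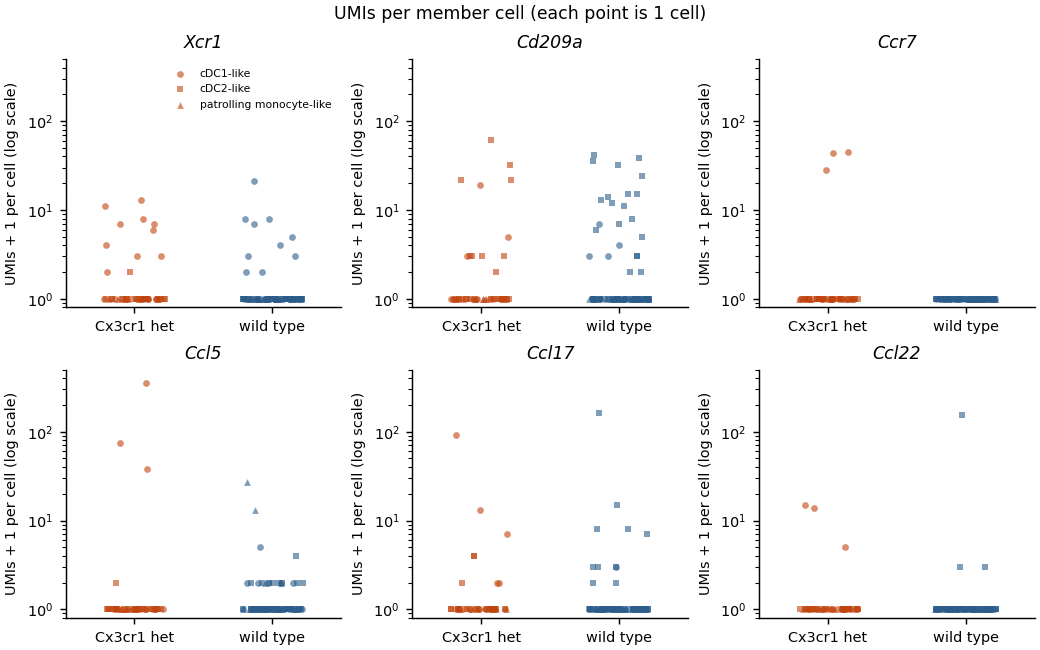
UMIs + 1 per member cell (y axis, log scale) of 6 genes, heterozygous left of wild type in each panel; each point is 1 cell, with circles cDC1-like, squares cDC2-like and triangles patrolling monocyte-like. Xcr1 and Cd209a are spread over 10 or more cells of each library, whereas Ccr7 is in 3 heterozygous cells (44, 43 and 27 UMIs) and single cells hold 351 UMIs of Ccl5, 163 of Ccl17 and 153 of Ccl22.

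Most chemokine ligand genes were lower in the heterozygous members. Of 13 kept, 8 were over 1.5-fold lower and 1, Ccl5, was higher, and the median log2 ratio was -1.02 against -0.04 over all genes. Ccl12, a monocyte attractant, stood at 21.6 CPM in heterozygous and 73.1 CPM in wild-type members (log2 ratio -1.76, -2.69 to -0.93). Of its 81 wild-type UMIs 39 lay in 1 cell, and the log2 ratio was -1.16 without the top cells. In class II C1q macrophages Ccl12 was higher in the heterozygous library, at 727 against 530 CPM (log2 ratio 0.46, 0.32 to 0.59). In the other kept cells it stood at 444 and 332 CPM. Cxcl10, which interferon induces and which draws T cells, had 38.6 and 87.5 CPM (log2 ratio -1.18, -1.88 to -0.54). The neutrophil attractant Cxcl2 had 588 UMIs in 26 heterozygous cells and 2104 UMIs in 61 wild-type cells. Within cDC2-like cells, where 6.81% of 2143 genes were over 1.5-fold higher and 7.84% lower, 6 of 12 of these ligands were lower (Ccl3, Ccl7, Ccl12, Ccl17, Ccl22 and Cxcl2) and Ccl9 was higher. Within cDC1-like cells 3 of 7 were higher and 3 lower. Cxcl1, a close relative of Cxcl2, had 0 UMIs in heterozygous members and 58 UMIs in 8 wild-type members. With 3 counts in place of 0 its log2 ratio was -3.50, and the interval had an upper limit of -3.15.

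Interferon response genes were lower in part. Of 6 kept, Isg15, Irf7 and Rtp4 were over 1.5-fold lower and 0 higher (median -0.65). Irf7, which amplifies type I interferon, stood at 64.8 CPM in heterozygous and 134 CPM in wild-type members (log2 ratio -1.04, -1.57 to -0.54), and Isg15, a ubiquitin-like modifier, at 100 and 182 CPM. In cDC2-like cells Irf7 had 4 UMIs in heterozygous against 59 in wild-type cells, a log2 ratio of -2.87 (-4.79 to -1.43), and Isg15 17 against 97. In cDC1-like cells Isg15 was level at 141 and 144 CPM. Irf7 was lower there in heterozygous cells, at 73.7 against 137 CPM (log2 ratio -0.89, -1.70 to -0.12). In patrolling monocyte-like cells Isg15 had 4 against 62 UMIs (log2 ratio -1.95, -3.87 to -0.52). The interval of Irf7 in those cells included equality (log2 ratio 0.33, -0.61 to 1.19). In the class II C1q macrophages Irf7 was at 38.7 and 36.4 CPM, and in the other kept cells at 40.8 and 59.4 CPM; the difference between these populations was not tested.

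Cx3cr1, the fractalkine receptor whose gene the study altered (chr9:119901616-120069879, minus strand), had 28 UMIs in 17 of 49 heterozygous members and 137 UMIs in 44 of 96 wild-type members. This made 43.2 CPM in heterozygous and 124 CPM in wild-type members, a log2 ratio of -1.52 (-2.16 to -0.92). No source used here says which part of the allele is altered, so a 3' tag count does not check the genotype label. The receptor followed the sub-clusters, at 6.41 and 10.0 CPM in heterozygous and wild-type cDC1-like cells, 62.8 and 131 CPM in cDC2-like cells, and 139 and 238 CPM in patrolling monocyte-like cells. It was lower in heterozygous cells of each sub-cluster, but only in cDC2-like cells did the interval leave out equality (log2 ratio -1.07, -1.92 to -0.29). The class II C1q macrophages had 562 and 606 CPM (log2 ratio -0.11, -0.25 to 0.03), and the other kept cells had 643 and 736 CPM. After thinning, 25.0% of heterozygous and 14% of wild-type members had a UMI, against 36.1% and 47.1% of S100-high cells. Unthinned shares were 34.7% and 45.8% of members and 60.1% and 69.4% of S100-high cells. The share in members lay below that of the S100-high cells. Between the libraries the order of the shares in members went against the CPM after thinning and with the CPM before it. The thinned intervals overlapped (13.6 to 39.6% in heterozygous and 7.66 to 22.7% in wild-type members), so the thinned order is not decided. The part of free RNA in the Cx3cr1 level was not tested. Given the same sub-cluster shares, the log2 ratio of Cx3cr1 was -0.92.

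Ly6a, the stem cell antigen Sca-1 that also marks activated leukocytes, was among the 10 lowest ratios. It had 4 UMIs in 4 heterozygous members and 75 UMIs in 16 wild-type members, 6.17 and 67.7 CPM, a log2 ratio of -3.45 (-5.37 to -2.04). It was lower in each sub-cluster, with 1 against 27 UMIs in cDC2-like, 2 against 13 in cDC1-like and 1 against 35 in patrolling monocyte-like cells. All 13 wild-type UMIs in cDC1-like cells lay in 1 cell, so the order there turns without it, and 15 and 14 of the 35 lay in 2 cells. In the other kept cells the order was the opposite, 104 CPM in heterozygous and 48.6 CPM in wild-type cells (log2 ratio 1.09, 0.96 to 1.22). In the class II C1q macrophages Ly6a stood at 12.9 CPM in heterozygous and 18.2 CPM in wild-type cells. The interval there included equality (log2 ratio -0.50, -1.49 to 0.43). The difference between these populations was not tested.

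**Figure D4:**
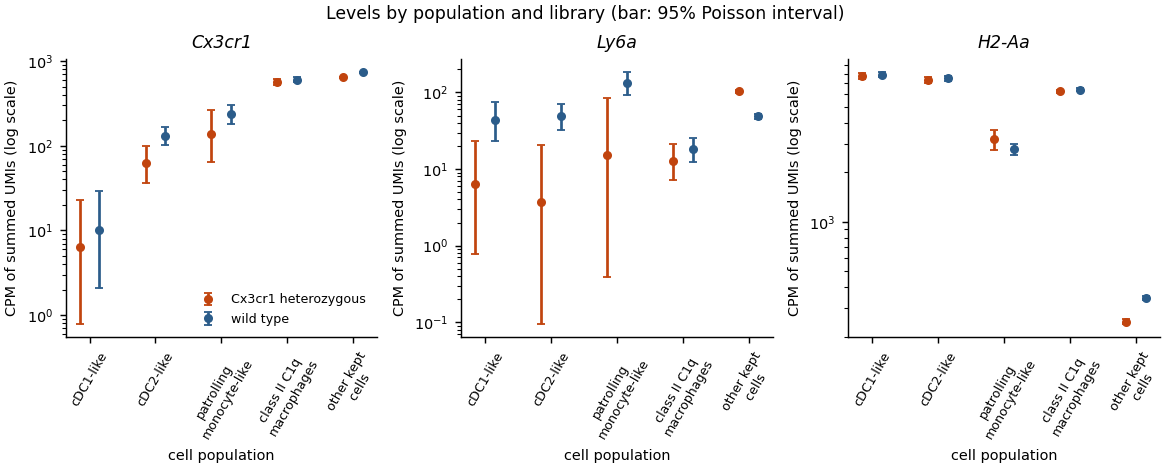
CPM of summed UMIs (y axes, log scale) of Cx3cr1, Ly6a and H2-Aa in the 3 sub-clusters, the class II C1q macrophages and the other kept cells; heterozygous points left of wild-type points, bars are 95% Poisson intervals of the counts. Ly6a lies lower in heterozygous cells of each member sub-cluster, through 1 wild-type cell in the cDC1-like cluster, and higher in the other kept cells (104 against 48.6 CPM), while H2-Aa lies close in both libraries within cDC1-like and cDC2-like cells.

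Patrolling monocyte genes were mostly lower in heterozygous members, which did not hold for other monocyte and macrophage lists. Of 8 patrolling monocyte genes kept, 6 were over 1.5-fold lower and 0 higher (median -0.77), among them Ace with 9 UMIs in 6 heterozygous cells and 121 UMIs in 27 wild-type cells, a log2 ratio of -2.97 (-4.14 to -2.0), and the part of free RNA in it was not tested. Within patrolling monocyte-like cells, where 8.91% of 988 genes were over 1.5-fold higher and 12.6% lower, 1 of 8, Ace, was lower and Ear2 higher. Given the same sub-cluster shares in both libraries, the log2 ratio of Ace was -1.82. Itgal, lower with all members (log2 ratio -0.61, -1.01 to -0.23), turned to 0.20 in the same way. Classical monocyte genes had 1 of 8 higher and 2 lower (median 0.07), and lipid-associated macrophage genes 3 of 9 higher and 0 lower. Clec4e, the receptor Mincle for microbial glycolipids, stood at 52.5 CPM in heterozygous and 162 CPM in wild-type members, and Cd14, the co-receptor for bacterial lipopolysaccharide, at 136 and 291 CPM. Among 7 Fc receptors kept, Fcgr1 and Fcgr4 were over 1.5-fold lower and Fcrls higher. At equal sub-cluster shares the log2 ratio of Fcgr4 was -0.05, against -1.11 over the members as they were. At these shares it was -0.82 for Fcgr1, 0.96 for Fcrls, -0.94 for Clec4e and -0.63 for Cd14. Among 21 transcription factors kept, Batf3, Id2 and Relb were higher, and Klf4, Zeb2, Ikzf1, Cebpb and Maf, several of them known from monocytes and macrophages, were among those lower.

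Over all members, 13.5% of 4105 genes passed 1.5-fold in either direction. With 5, 4 and 6 genes kept, the co-stimulation, cytokine and growth factor receptor lists are too short to set apart from that share. Co-stimulation genes had 1 of 5 higher, Cd274, which encodes the inhibitory ligand PD-L1, at 41.7 CPM in heterozygous and 26.2 CPM in wild-type members. Its interval included equality (log2 ratio 0.67, -0.14 to 1.48), and the ratio turned to -0.18 without the Ccr7 cells. Of 4 cytokines kept 0 passed 1.5-fold, with Il1b at 546 and 785 CPM and Tnf at 113 and 159 CPM. Growth factor receptors had 0 of 6 past 1.5-fold, with Csf1r, the receptor for the macrophage growth factor, at 178 and 230 CPM. Dividing cell genes had 0 of 9 past 1.5-fold over all members, but within cDC1-like cells 6 of 7 were lower in heterozygous cells, where 10.2% of 1584 genes were, with Top2a at 183 against 391 CPM and Mki67 at 112 against 284 CPM.

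Several of the other most extreme genes rested on single cells. Plpp3, Mgp, Igfbp7 and Lum, genes of stromal and vessel-wall cells, had 139, 65, 61 and 51 UMIs in single wild-type cells. Serpinb6b, a protease inhibitor, was less narrow, with 59 UMIs in 7 heterozygous and 5 UMIs in 2 wild-type cells. Tbc1d4, a regulator of vesicle traffic, had 162 UMIs in 14 heterozygous and 67 UMIs in 20 wild-type cells, 250 and 60.5 CPM, and kept a log2 ratio of 1.89 without the top cells, against 2.05 with them. Fabp5, a fatty acid-binding protein, had 171 and 73 UMIs in heterozygous and wild-type members, with 83 and 52 of the heterozygous UMIs in 2 Ccr7 cells, and its log2 ratio was -0.19 without the Ccr7 cells, against 2.0 with them. Rtl8a, Slc7a11 and Fabp4 had 38, 4 and 2 UMIs in heterozygous members and 17, 49 and 62 in wild-type members.

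**Figure D5:**
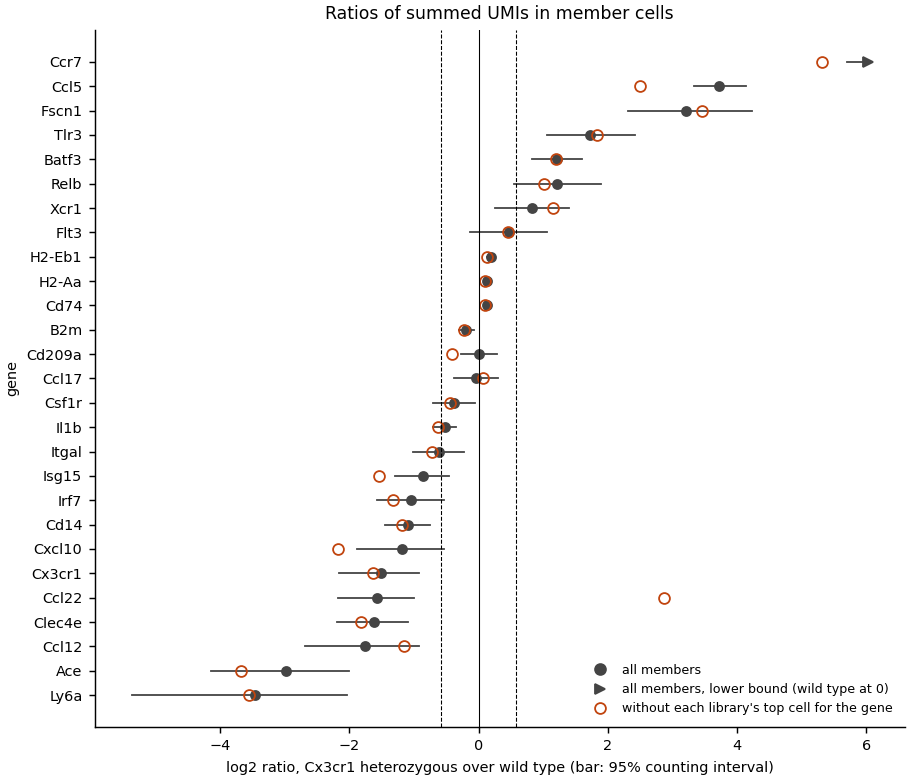
Log2 ratio of heterozygous over wild type for 27 genes in member cells (x axis; filled marks, with bars for the 95% counting interval, an arrowhead where wild type is at 0) and the same ratio without the cell holding the most UMIs of the gene in each library (open circles); dashed lines mark 1.5-fold. H2-Aa and Cd74 lie near 0, Ly6a at -3.45, and Ccl22 moves between -1.57 and 2.86 when the top cells are left out.

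Set against the class II C1q macrophages, the cells of equal class II rule but C1q of at least 2000 CPM, the members had less of the macrophage and microglia programme. In both libraries 253 of 4239 genes were over 1.5-fold higher (5.97%) and 336 over 1.5-fold lower (7.93%) in members, and since C1q chose the cells, genes that follow it are a description. All 7 microglia genes kept were lower in both libraries. Tmem119, a surface protein of resident microglia, stood at 4.63 CPM in members and 228 CPM in macrophages of the heterozygous library, and at 15.3 and 198 CPM in those of the wild-type library. Apoe, the lipid carrier, stood at 553 and 11464 CPM in members and macrophages of the heterozygous library and at 672 and 6813 CPM in the wild-type library, and Pf4 and Ms4a7, known from border macrophages, were lower as well.

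The genes higher in members in both libraries included 7 of 9 cDC1 genes kept. Of 5 cDC2 genes kept, Cd209a and Clec10a were higher and Sirpa lower, with medians of 0.35 in the heterozygous and 0.40 in the wild-type library. Xcr1 had 55 and 53 UMIs in heterozygous and wild-type members and 0 in the macrophages of either library. Dpp4, the surface peptidase CD26, was on the list for dendritic cells of any type. It stood at 81.8 CPM in members and 7.73 CPM in macrophages of the heterozygous library. In the wild-type library it stood at 58.7 and 6.83 CPM. Others of the 12 highest were Ifi205, Nr4a2, Cd24a, Gpr171, Klrd1, Ddit4, Tbc1d4, Itgb7, the beta chain of a gut-homing integrin, and Plac8. H2-Ob stood at 63.3 CPM in members and 11.2 CPM in macrophages of the heterozygous library, and at 56.9 and 7.39 CPM in the wild-type library. Within the class II pathway, Ciita, H2-Oa, H2-Ob and H2-DMb2 were higher and the lysosomal proteases Ctss and Lgmn lower in both libraries, among 12 genes kept.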

How the data were processed

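The authors deposited raw counts of UMIs per gene and barcode for each library, made with the 10x Genomics 3′ kit, per the labels' protocols. Cell Ranger 4.0 and the mm10 genome are named in the submitters' processing notes, while the matrices name Cell Ranger 5.0.0, per the file headers. Gene positions came from GENCODE M21 (GRCm38), with 32158 of 32285 identifiers matched.

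Cells were kept with at least 500 genes, under 10% mitochondrial UMIs and a barcode not listed in both libraries. No doublets were called or removed; an alternative left out members over 2 times the median UMIs. Members were clustered without integration in scanpy 1.11.5 (10000 counts per cell, log1p, 2000 variable genes, 30 components, 15 neighbours, Leiden in igraph 0.11.9 at resolution 0.5). A cluster took the name of the list with the most genes among its 10 leading ones and at least 3 detected.

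UMIs were summed per library and population. Ratios carry exact conditional binomial intervals, CPM exact Poisson and shares exact Clopper-Pearson intervals, from scipy 1.17.1, and the code was tested on simulated counts. A gene at 0 was set to 3 counts. Members and lists were chosen with earlier results of these data known. Named genes were H2-Aa, H2-Eb1, Cd209a, Flt3, Ccl17 and Cx3cr1, the 10 highest and 10 lowest ratios past 1.5-fold, the 12 highest and 12 lowest over macrophages by the smaller of both ratios, up to 4 per functional list, and leading and marker genes of sub-clusters; predicted, ribosomal, mitochondrial, haemoglobin, immunoglobulin and sex-linked genes were left out, and a few genes that the rule names are not reported here. Alternatives covered the cell filter, each limit of the rule, scaling by TMM (edgeR 4.0.16) or median of ratios, cells weighted alike, the minimum UMIs, resolution and single cells.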

Additional observations from a re-analysis of the deposited data

Results flagged for a closer look

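Genes whose ratio of heterozygous over wild type pointed in opposite directions in 2 sub-clusters, both past 1.5-fold and with intervals that left out equality, were looked for among the named genes. Between cDC1-like and cDC2-like cells the log2 ratios differed by 9.59 for Ccl17 (5.73 and -3.86), 8.0 for Ccl22 (3.31 and -4.69, both against 3 counts in place of 0) and 6.15 for Tbc1d4 (3.16 and -2.98). Between cDC1-like and patrolling monocyte-like cells they differed by 7.35 for Ccl5 and 6.33 for Fabp5, and between cDC2-like and patrolling monocyte-like cells by 3.15 for Fabp5. Csf1r was higher in heterozygous patrolling monocyte-like cells and lower in cDC1-like cells, a difference of 2.62.

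The same was looked for between the members and the other kept cells. The members' log2 ratio exceeded that of the other cells by 8.70 for Retnla, 8.05 for Ccr7 and 4.73 for Ccl5. It lay below that of the other cells by -6.32 for Lum, -6.30 for Mgp, -5.26 for Plpp3, -5.23 for Igfbp7, -5.05 for Prss34 and -4.55 for Ly6a. These differences were not tested, since each genotype has 1 library.

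The barcodes listed in both libraries were used in no comparison, and some met the same limits: 13 of 255 that passed the cell filter in the heterozygous library (5.10%) and 7 of 198 in the wild-type library (3.54%). Of them, 5 were the same barcode in both. Their median depth was 1127 and 1306 UMIs, against 12563 and 10455.5 UMIs in members, and in the heterozygous library 1 had Xist alone and 3 a Y-linked UMI alone.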

How the results depend on the processing

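Of 14 values of the member share under alternatives, 11 stayed within counting error, of 42 counts of genes past 1.5-fold 36 stayed within 1.5 times, and of 18 sub-cluster shares 17 stayed within counting error; 240 of 240 medians of 15 functional lists moved by less than 1.5-fold. Marker lists were compared without top cells alone, where the medians were 2.86 for mature dendritic cells (0.87 with them), 0.65 for cDC1 (0.83), -0.45 for cDC2 (-0.02), -1.15 for patrolling monocytes (-0.77), 0.17 for classical monocytes (0.07) and -0.67 for dividing cells (-0.05). The share was 5.27% in the heterozygous library without a limit on genes or mitochondrial UMIs, 4.23% in the wild-type library at class II of 6000 CPM and 4.00% there without patrolling monocyte-like cells. Higher genes numbered 325 with each cell weighted alike, 371 at a minimum of 20 UMIs and, with 53 lower ones, 20 at 200 UMIs, against 212 and 341; over macrophages 65 and 106 at 200 UMIs, against 253 and 336. These minimums change how many genes are counted; for the rest the cause was not tested. Without members over 2 times the median UMIs the patrolling monocyte-like share of wild-type members was 42.7%. Leaving out top cells moved the median of all genes to -0.12.

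Single genes that changed sign (log2): Plpp3 1.17 at C1q under 1000 CPM, 1.21 without dividing members and 1.21 without the cells richest in Gzma, Prss34 and Mgp, where Gzma was -0.94 and Prss34 2.80; Gzma -1.01 without high-UMI members and -0.64 without top cells; Fcrls -0.26 without dividing members; Ccl22 2.86 without top cells; Itgal 0.20 at equal sub-cluster shares and 0.29 without patrolling monocyte-like cells; and without Ccr7 cells Fscn1 -1.13, Fabp5 -0.19, Cd274 -0.18 and Cd63 -0.92. Alternatives on single cells and on the patrolling monocyte-like cells were chosen after seeing the data. A few named genes gave no ratio where both libraries had at most 3 UMIs. TMM and median-of-ratios scaling shifted all genes by -0.01 and 0.01. No paired analysis was possible because the groups share only replicate number 1. With 49 and 96 members, low genes rest on few UMIs.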
